A study of Homo sapiens with 9 samples.

Results

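The genes described here are 10 genes of the YAP-TEAD growth control pathway and of the CCN family of secreted matrix proteins: CCN1, CCN2, CCN3, ANKRD1, AMOTL2, LATS2, YAP1, WWTR1, TEAD1 and TEAD4. They were taken by symbol from tables of 61155 gene symbols, and all 10 passed the filter on low counts. CCN3 was chosen by its measured change, which had opposite signs in the knockout clones, so its values are given as a description without a test. The other genes and the gene lists below were chosen with earlier results of these data known, which their p-values do not take into account. RNA was sequenced from MDA-MB-231, an established human breast cancer cell line, to compare cells with and without FBXL12. This gene encodes the substrate-recognition subunit of an SCF ubiquitin ligase. FBXL12 had been knocked out in clone 1 (KO1) and in clone 2 (KO2), and WT cells had received a scrambled guide RNA; no group was otherwise treated, as far as the labels state. Each group had 3 libraries. A clone descends from 1 cell, so the knockout was sampled in 2 clones and set against 1 control population, and the labels do not say whether the libraries of a group came from separate cultures. A p-value here therefore reflects library-to-library spread alone, possibly of technical origin.

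In the Hippo pathway the kinases STK3 and STK4, with their scaffold SAV1, activate LATS1 and LATS2, and these phosphorylate the coactivators YAP1 and WWTR1 (also called TAZ), which then stay in the cytoplasm or are degraded. Unphosphorylated YAP1 and WWTR1 enter the nucleus and bind DNA through the TEAD transcription factors. CCN1 (formerly CYR61), CCN2 (formerly CTGF), ANKRD1, AMOTL2 and LATS2 are standard target genes of this complex, and AMOTL2 and LATS2 act back on it as inhibitors. MDA-MB-231 cells are known to have lost the upstream regulator NF2 by mutation and to show high YAP activity. The pathway is controlled mainly by phosphorylation and location of its proteins, which mRNA levels do not measure.

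The promoters of CCN2 and ANKRD1 are shown because ANKRD1 had the largest changes of the tested genes and CCN2 was lower in both clones, and each promoter holds more than 1 copy of GGAATG, a core sequence bound by TEAD factors. In the sequences, taken from RefSeq (GRCh38.p14) and written 5′ to 3′ along the gene, capitals mark GGAATG. The CCN2 stretch is chr6:131951374-131951622, minus strand, and the ANKRD1 stretches are chr10:90921290-90921319 and chr10:90921198-90921227, minus strand.
CCN2 promoter: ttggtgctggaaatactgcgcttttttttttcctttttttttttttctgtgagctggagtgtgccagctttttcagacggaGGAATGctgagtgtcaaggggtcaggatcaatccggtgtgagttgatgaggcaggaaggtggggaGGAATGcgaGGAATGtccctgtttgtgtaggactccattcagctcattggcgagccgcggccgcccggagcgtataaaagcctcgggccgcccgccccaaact
ANKRD1 distal site: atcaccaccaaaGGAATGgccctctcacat
ANKRD1 proximal site: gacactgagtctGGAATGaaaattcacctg
The CCN2 copies begin 169, 104 and 95 bases before the RefSeq start of that gene, and the ANKRD1 copies begin 220 and 128 bases before the RefSeq start of ANKRD1. GENCODE 29, whose gene coordinates are given below, starts ANKRD1 further upstream, between these copies, so the proximal site lies inside the gene as GENCODE draws it. RefSeq windows of 250 bases before a start were at hand for 6 of the 10 genes, in 8 windows, and were searched on both strands for GGAATG and for TGANTCA, a sequence bound by AP-1 factors. YAP1 held GGAATG once and so did 1 of the AMOTL2 windows, whereas the windows of WWTR1 and LATS2 held none. TGANTCA occurred in the ANKRD1 window alone among these 8, starting 195 bases before the start. Of all 35116 windows of this length, 11.9% held GGAATG and 6.57% held TGANTCA. A match describes the letters and does not show that a factor binds there.

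Gene coordinates below are those of GENCODE 29 (GRCh38). Total counts ran from 52427841 to 97243363 per library. FBXL12 mRNA, which checks the labels, was lower in both clones and remained detectable: it stood at 9.56, 9.95 and 9.40 CPM in KO1 and at 6.14, 6.36 and 5.33 CPM in KO2, against 22.2, 23.3 and 21.3 CPM in WT (CPM, counts per 1000000 of the scaled library total). The 40 tested genes nearest to FBXL12 also lay lower, with a median log2 change of -0.49 in KO1 and -0.74 in KO2. Of the markers of cell type, the 6 picked for basal-like and mesenchymal cancer lines were high: VIM, CD44, EGFR, ZEB1, CAV1 and AXL. They summed to 7280 to 7480 CPM in KO1, 8510 to 8670 CPM in KO2 and 6730 to 7190 CPM in WT. The 6 luminal and epithelial markers summed to 14.4 to 15.2 CPM in KO1, 7.49 to 8.81 CPM in KO2 and 11.1 to 11.8 CPM in WT, with PGR at 0 in every library. The 4 endothelial markers summed to 21.7 to 22.4 CPM in KO1, 19 to 21.5 CPM in KO2 and 14.7 to 15.6 CPM in WT. Of these, KDR alone averaged 21.1 CPM in KO1, 19.3 CPM in KO2 and 14.4 CPM in WT. The 5 fibroblast markers summed to at most 4.57 CPM in a library, and the 4 leukocyte markers to at most 0.917 CPM. Mitochondrial transcripts made up 3.28% to 3.97% of counts in KO1, 4.49% to 5.39% in KO2 and 3.52% to 3.83% in WT, and their part in the results was not tested.

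In KO1, 6 of the 9 genes other than CCN3 were called changed against WT at an adjusted p under 0.05, whereas 34.8% of all 17759 tested genes were (edgeR's quasi-likelihood test, Benjamini-Hochberg adjustment over all tested genes, here and below). YAP1, WWTR1 and LATS2 were higher, and CCN2, ANKRD1 and TEAD4 were lower. In KO2, 8 of the 9 were called, where 49.4% of all tested genes were: ANKRD1, WWTR1 and TEAD1 were higher, and CCN1, CCN2, AMOTL2, TEAD4 and LATS2 were lower. Highly expressed genes were called more often: among the 4704 genes at least as high as the lowest of the 9, 50.7% were called in KO1 and 59.8% in KO2. Most of the changes were small. In either clone, ANKRD1 alone among the 9 was called with a change of at least 1.5-fold. So were 8.71% of all tested genes in KO1 and 20% in KO2. The libraries of a clone and of WT did not overlap for 7 of the 9 in KO1 (46.5% of all tested genes) and 8 of the 9 in KO2 (58.8%). The median absolute log2 change of the 9 was 0.28 in KO1 and 0.17 in KO2, against 0.21 and 0.29 over all tested genes. In bulk RNA, fewer cells that express a gene and less of its RNA per cell cannot be told apart. Both clones were compared with the same 3 WT libraries, so the pair of comparisons is not independent.

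**Figure D1:**
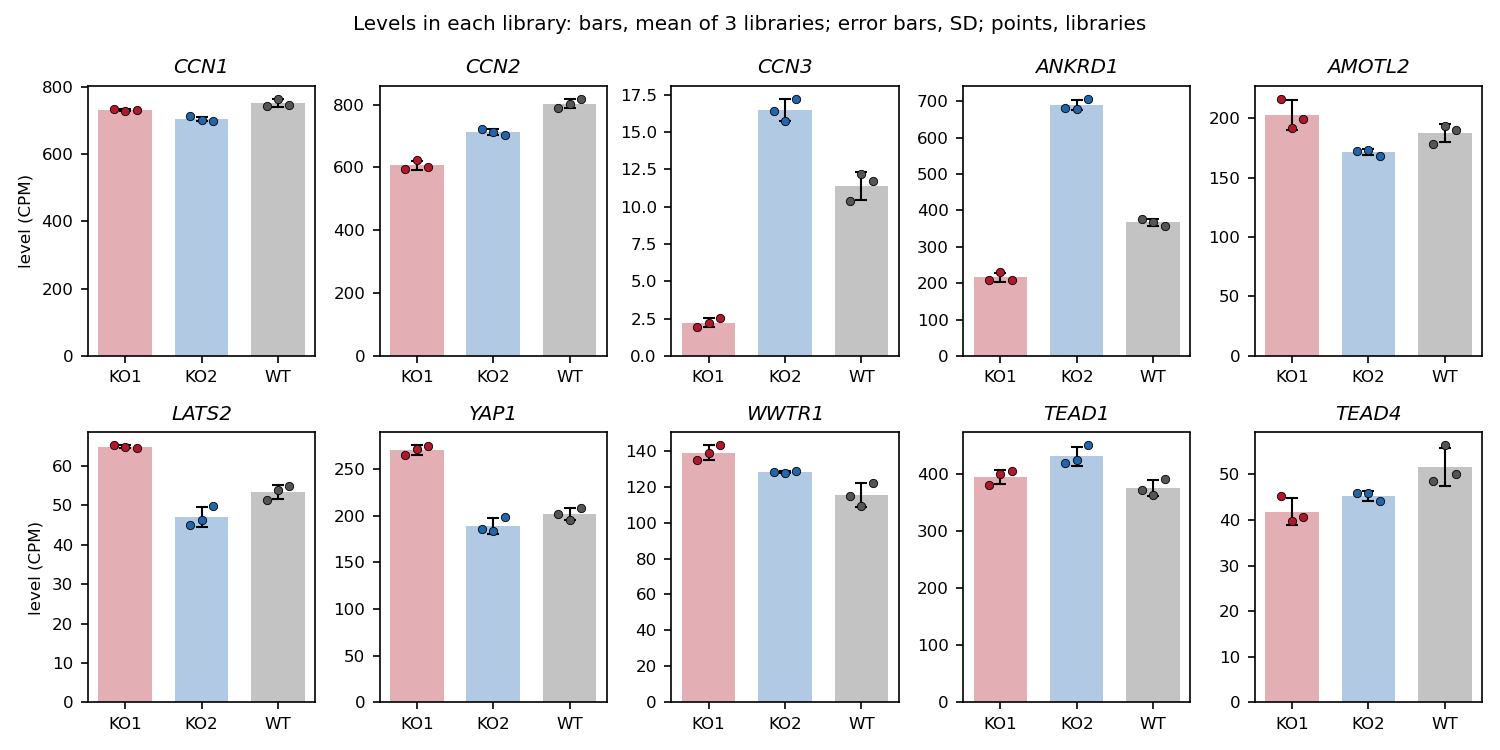
Level of each of the 10 genes in CPM (vertical axis, from 0) in KO1, KO2 and WT; bars are means of 3 libraries, error bars are SD and points are libraries. ANKRD1 is lowest in KO1 and highest in KO2, while CCN1 lies between 699 and 763 CPM in all 9 libraries.

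Among the genes of the secreted CCN proteins, CCN2 mRNA fell in both clones, CCN1 mRNA hardly moved and CCN3 mRNA diverged. CCN2 (chr6:131948176-131951373, minus strand), which promotes matrix production and fibrosis, was read at 595, 623 and 602 CPM in KO1 and at 721, 713 and 703 CPM in KO2, against 790, 800 and 818 CPM in WT. The 3 groups did not overlap, with KO1 lowest and KO2 between KO1 and WT. The CCN2 change was -0.40 ± 0.04 (log2 change ± SE) in KO1, which is 75.6% of WT (adjusted p = 6.83e-07). It was -0.17 ± 0.04 in KO2 (adjusted p = 0.000941), and the clones differed by -0.23 ± 0.04 (KO1 minus KO2, adjusted p = 5.6e-05). Its neighbours on chromosome 6 had medians of -0.06 in KO1 and -0.11 in KO2. An antisense gene, AL133346.1, overlaps 195 bases of its exons, and the sources used here do not say whether the counting used strand.

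CCN1 (chr1:85580761-85583962, plus strand), a ligand of integrins that acts in adhesion and angiogenesis, stood at 733, 728 and 732 CPM in KO1 and at 712, 701 and 699 CPM in KO2, against 743, 763 and 746 CPM in WT. Each clone lay below all WT libraries, by very little. CCN1 differed from WT by -0.04 ± 0.03 (log2) in KO1 (adjusted p = 0.406; 95% interval -0.11 to 0.03) and -0.09 ± 0.03 in KO2 (adjusted p = 0.0312). The KO2 call was lost in 8 of 19 alternative analyses, among them leaving out WT replicate 1 (-0.10), WT replicate 2 (-0.08), WT replicate 3 (-0.10), KO1 replicate 3 (-0.09), KO2 replicate 2 (-0.10) or KO2 replicate 3 (-0.09).

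CCN3 (formerly NOV), a family member known for restraining proliferation in several cell types, had the lowest level of the 10 genes in every group. Its mean level over all libraries was above that of 45.9% of the tested genes. It was read at 1.91, 2.20 and 2.51 CPM in KO1, from 149, 174 and 219 reads, and at 16.4, 15.8 and 17.2 CPM in KO2, against 10.3, 12.2 and 11.7 CPM in WT. The 3 groups did not overlap, with KO1 at 19.4% and KO2 at 144% of the WT mean. On the log2 scale CCN3 changed by -2.36 in KO1 and by 0.53 in KO2, or by 0.47 in KO2 without WT replicate 1. Since these values chose the gene, no test is given. The medians of its neighbours on chromosome 8 were 0.03 in KO1 and -0.25 in KO2, where 33 of 40 lay below 0. Of these neighbours, 1 went further the same way in KO1 and 2 did in KO2. AARD, named after its values were seen, was among them in both clones, at -2.80 in KO1 and 2.75 in KO2. Of the other family members, CCN4 and CCN5 did not pass the filter on low counts. CCN6 averaged 0.261 CPM in KO1, 0.135 CPM in KO2 and 0.253 CPM in WT and was called in neither clone.

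The genes whose pair of log2 changes lay nearest to that of CCN3, by Euclidean distance over both comparisons with WT and among 10614 genes, were BST2, GSTP1 and LINC01224. BST2, an interferon-induced membrane protein, was at a distance of 0.664, with changes of -2.20 in KO1 and -0.11 in KO2. GSTP1, a glutathione transferase, was at 0.679, with -1.70 in KO1 and 0.69 in KO2. LINC01224, a long noncoding RNA, was at 0.836, with -1.53 in KO1 and 0.60 in KO2. The likeness is a description over 3 groups.

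ANKRD1 (chr10:90912096-90921276, minus strand), a nuclear ankyrin repeat protein and a sensitive readout of YAP-TEAD activity in many cell types, had the largest changes of the 9 tested genes, in opposite directions in the clones. It stood at 209, 230 and 210 CPM in KO1 and at 682, 680 and 707 CPM in KO2, against 376, 368 and 358 CPM in WT. No library of one group came near those of another. The log2 change was -0.76 ± 0.04 in KO1 (58.9% of WT, adjusted p = 7.7e-09) and 0.91 ± 0.04 in KO2 (188% of WT, adjusted p = 2.57e-10). The clones differed by -1.67 ± 0.04 (KO1 minus KO2, adjusted p = 2.38e-13). The genes around ANKRD1 on chromosome 10 moved the same way by less: their median was -0.33 in KO1, with 35 of 40 below 0, and 0.28 in KO2, with 32 of 40 above 0. ANKRD1 lay beyond its neighbours' median by -0.44 in KO1 and 0.63 in KO2, and 5 and 6 neighbours went further the same way. A copy number of this region was not measured, and its part in the result was not tested.

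AMOTL2 (chr3:134355874-134375479, minus strand), an angiomotin family scaffold that holds YAP1 out of the nucleus, stood at 216, 192 and 200 CPM in KO1 and at 173, 173 and 168 CPM in KO2, against 179, 194 and 190 CPM in WT. KO1 overlapped WT, and KO2 lay just below it. On the log2 scale AMOTL2 differed from WT by 0.11 ± 0.05 in KO1 (adjusted p = 0.0848) and -0.13 ± 0.05 in KO2 (adjusted p = 0.0378). With the trend of counts on GC content removed from each library, the KO1 change was 0.25 (adjusted p = 4.24e-07) and the KO2 change was 0.0052 (adjusted p = 0.895). The KO1 value also passed the threshold without KO1 replicate 2 (0.15). The KO2 call held in 8 of 19 alternative analyses, was lost in 9, and the change turned sign in 2, both with the GC trend removed. It was lost with upper quartile scaling (-0.09, adjusted p = 0.12), the filter at 1 CPM in 3 libraries (-0.12, adjusted p = 0.057) and the replicate block (-0.13, adjusted p = 0.0645). Leaving out WT replicate 2 (-0.10), WT replicate 3 (-0.12), KO1 replicate 3 (-0.13), KO2 replicate 1 (-0.14), KO2 replicate 2 (-0.14) or KO2 replicate 3 (-0.12) also lost it. The difference between the clones was 0.24 ± 0.05 (KO1 minus KO2, adjusted p = 0.00065). The pseudogene RPL39P5 overlaps 187 bases of its exons on the same strand.

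LATS2 (chr13:20973032-21061547, minus strand), the kinase that phosphorylates YAP1 and WWTR1 and is itself a target of theirs, stood at 65.2, 64.9 and 64.7 CPM in KO1 and at 45.0, 46.2 and 49.8 CPM in KO2, against 51.4, 53.9 and 54.9 CPM in WT. The groups did not overlap, with KO1 above and KO2 below WT. LATS2 had a log2 change of 0.28 ± 0.05 in KO1 (adjusted p = 0.000429) and -0.18 ± 0.05 in KO2 (adjusted p = 0.00662), a difference of 0.47 ± 0.05 (KO1 minus KO2, adjusted p = 1.26e-06). Its 38 neighbours on chromosome 13 had medians of 0.11 in KO1 and 0.09 in KO2, so in KO2 the gene and its neighbours differed in sign. LATS2 and ANKRD1, both YAP-TEAD targets, changed in opposite directions within each clone.

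**Figure D2:**
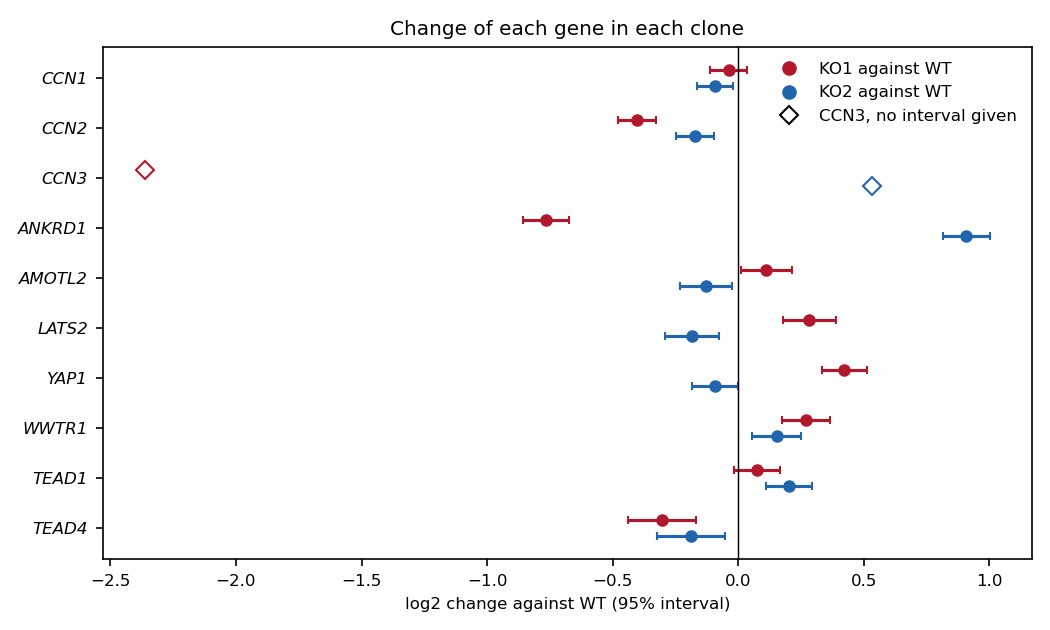
Log2 change against WT of each gene (horizontal axis) in KO1 and KO2, with 95% intervals from the quasi-likelihood fit; open diamonds mark CCN3, which has no interval. ANKRD1 lies at -0.76 in KO1 and 0.91 in KO2, and the other tested genes lie between -0.40 and 0.42.

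Of the coactivators, YAP1 and WWTR1 rose in KO1 and WWTR1 rose slightly in KO2. YAP1 (chr11:102110461-102233423, plus strand) stood at 265, 272 and 275 CPM in KO1 and at 186, 183 and 199 CPM in KO2, against 202, 196 and 208 CPM in WT. KO1 lay above every other library, and KO2 overlapped WT. The log2 change was 0.42 ± 0.04 in KO1 (adjusted p = 2.51e-06) and -0.09 ± 0.04 in KO2 (adjusted p = 0.0827), and the clones differed by 0.51 ± 0.04 (KO1 minus KO2, adjusted p = 6.94e-08). The KO2 value passed the threshold with the GC trend removed (-0.14, adjusted p = 0.000483), without KO1 replicate 2 (-0.10) and without KO2 replicate 3 (-0.14). The genes around YAP1 on chromosome 11 were raised alike in KO1: 38 of 40 lay above 0, their median was 0.47, and 22 of them rose by more than YAP1. A gain of DNA in this region was not measured, and its part in the YAP1 value was not tested. An antisense gene, AP000942.2, overlaps 628 exonic bases of YAP1.

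WWTR1 (chr3:149517235-149736714, minus strand) stood at 135, 139 and 143 CPM in KO1 and at 128, 128 and 129 CPM in KO2, against 115, 109 and 122 CPM in WT. Each clone lay above all WT libraries. WWTR1 rose by 0.27 ± 0.05 (log2) in KO1 (adjusted p = 0.000308) and 0.15 ± 0.05 in KO2 (adjusted p = 0.0113), and the KO2 call was lost without WT replicate 2 (0.11, adjusted p = 0.0732). The clones differed by 0.12 ± 0.05 (KO1 minus KO2, adjusted p = 0.0444), a call lost without KO1 replicate 3 (0.11), KO2 replicate 1 (0.13), KO2 replicate 2 (0.12) or KO2 replicate 3 (0.12). Its neighbours on chromosome 3 had medians of 0.12 in KO1 and -0.05 in KO2. The antisense gene WWTR1-AS1 overlaps 795 of its exonic bases.

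TEAD1 and TEAD4, which bind DNA for the coactivators, changed by little. TEAD1 (chr11:12674591-12944483, plus strand) stood at 382, 401 and 406 CPM in KO1 and at 420, 425 and 451 CPM in KO2, against 372, 364 and 392 CPM in WT. KO1 overlapped WT, and KO2 lay above both. Against WT, the TEAD1 log2 change was 0.08 ± 0.04 in KO1 (adjusted p = 0.19) and 0.20 ± 0.04 in KO2 (adjusted p = 0.00117). The clones differed by -0.12 ± 0.04 (KO1 minus KO2, adjusted p = 0.0245), and this call was lost when KO1 replicate 1 (-0.09) or KO1 replicate 3 (-0.13) was left out, and likewise for WT replicate 1 (-0.11), for KO2 replicate 2 (-0.13) and for KO2 replicate 3 (-0.09).

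TEAD4 (chr12:2959330-3040673, plus strand) stood at 45.2, 39.7 and 40.6 CPM in KO1 and at 45.9, 46.0 and 44.1 CPM in KO2, against 48.5, 56.4 and 50.2 CPM in WT. Both clones lay below every WT library, and they overlapped each other. The log2 change was -0.30 ± 0.06 in KO1 (adjusted p = 0.00174) and -0.19 ± 0.06 in KO2 (adjusted p = 0.0233). TEAD4 had the highest GC content of the 10 genes, 60.4% in its longest transcript, and with the GC trend removed neither call held: the KO1 value was -0.08 (adjusted p = 0.145) and the KO2 value was 0.077 (adjusted p = 0.123). The KO2 call was also lost without WT replicate 2 (-0.12) and without KO2 replicate 3 (-0.17). The clones differed by -0.12 (KO1 minus KO2, adjusted p = 0.149), but this difference passed the threshold with the GC trend removed (-0.15, adjusted p = 0.00317) and without KO1 replicate 1 (-0.16).

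**Figure D3:**
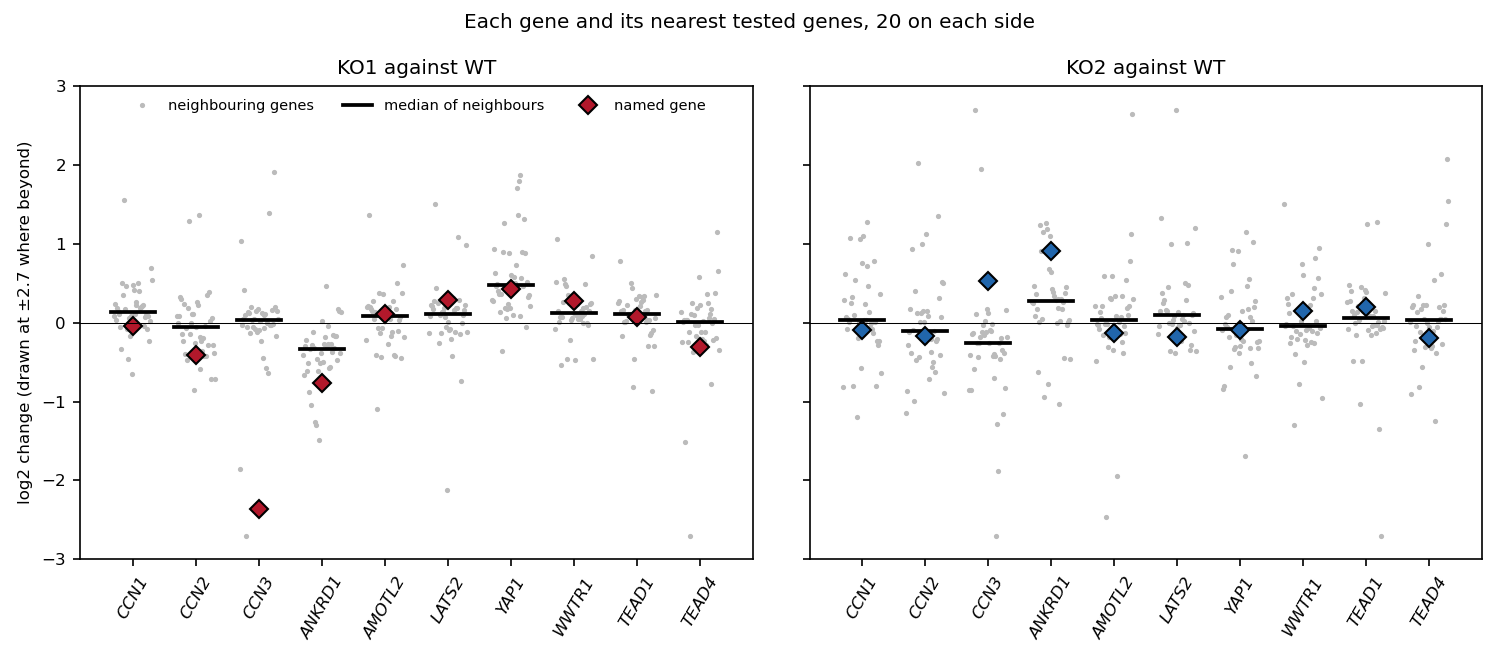
Log2 change against WT (vertical axis, drawn at ±2.7 where beyond) of each gene (diamond), of the nearest tested genes on its chromosome, 20 on each side (grey points; 38 in all for LATS2), and the neighbours' median (black line), in KO1 and in KO2. The neighbours of YAP1 in KO1 centre on 0.47, beside 0.42 for YAP1, and those of ANKRD1 centre on -0.33 in KO1 and 0.28 in KO2.

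Set against each other, KO1 and KO2 differed in 7 of the 9 genes, where 48.9% of all tested genes differed, and 61.2% of the 4704 highly expressed ones. With the GC trend removed, all 9 differed, as did 9999 of all 17759 tested genes. Of the 7, AMOTL2, LATS2, YAP1 and WWTR1 were higher in KO1, and CCN2, ANKRD1 and TEAD1 were lower in KO1. Of all tested genes, 23.9% were higher and 24.9% lower in KO1. Of the 9, ANKRD1 alone was called with a difference of at least 1.5-fold, as were 20.6% of all tested genes. The libraries of the clones did not overlap for 8 of the 9 genes (55.1% of all tested genes). The order of levels per kilobase of exon also differed between groups. In KO1 it was led by CCN1 (298 CPM per kb), CCN2 (259) and ANKRD1 (109), in KO2 by ANKRD1 (349), CCN2 (305) and CCN1 (287), and in WT by CCN2 (343), CCN1 (306) and ANKRD1 (186). Below these came TEAD1 and YAP1: YAP1 had 43.0 CPM per kb and TEAD1 38.5 in KO1, whereas YAP1 had 30.1 and TEAD1 42.0 in KO2, and YAP1 had 32.1 and TEAD1 36.6 in WT. AMOTL2, TEAD4, WWTR1, LATS2 and CCN3 followed in that order in every group, with CCN3 at 0.826 CPM per kb in KO1, 6.16 in KO2 and 4.27 in WT. The only neighbours in these orders whose libraries overlapped were YAP1 and AMOTL2 in WT.

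Beyond the 10 genes, the kinases and upstream regulators of the Hippo pathway changed in mixed directions. Of 20 genes in this list, LATS2 and AMOTL2 included, 13 were higher, 4 lower and 3 not called in KO1 (median log2 change 0.14), while 18% of all tested genes were higher and 16.8% lower. In KO2, 8 were higher, 8 lower and 4 not called (median 0.02), while 24.7% of all tested genes were higher and 24.7% lower. With the GC trend removed, 11 were higher and 2 lower in KO1 and 8 higher and 6 lower in KO2. Of all 17759 tested genes, 3785 were then higher and 3172 lower in KO1, and 5299 higher and 4430 lower in KO2. With upper quartile scaling 13 of the list were higher and 3 lower in KO1, and 8 higher and 4 lower in KO2. Of all tested genes, 3302 were then higher and 2913 lower in KO1, and 4893 higher and 3899 lower in KO2. STK3, a core kinase, rose by 0.39 ± 0.06 in KO1 and 0.38 ± 0.06 in KO2, and its scaffold SAV1 fell, with changes of -0.25 ± 0.05 in KO1 and -0.38 ± 0.05 in KO2. The SAV1 neighbours on chromosome 14 had medians of -0.22 in KO1, with 34 of 40 below 0, and 0.03 in KO2. The kinase MAP4K4 rose by 0.33 ± 0.04 in KO1 and by 0.16 ± 0.04 in KO2 (adjusted p = 0.00302). The angiomotin AMOTL1 rose by 0.24 ± 0.05 in KO1, beside neighbours with a median of 0.39. In KO2 AMOTL1 was lower, at -0.12 ± 0.05 (adjusted p = 0.0458). FRMD6, an upstream activator, rose by 0.31 ± 0.04 in KO2, as did MOB1B, a cofactor of the LATS kinases, by 0.37 ± 0.06. In KO1 the rises were 0.12 ± 0.04 for FRMD6 (adjusted p = 0.021) and 0.21 ± 0.06 for MOB1B (adjusted p = 0.0201). The FRMD6 call in KO1 was lost with the GC trend removed (0.035, adjusted p = 0.406). The MOB1B change in KO1 was then 0.10, barely past the threshold (adjusted p = 0.0491), and the MOB1B libraries of KO1 and WT overlapped. The kinase TAOK3 fell in KO2, with a change of -0.25 ± 0.04 beside a median of -0.24 for its neighbours. In KO1 TAOK3 was higher by 0.12 ± 0.04 (adjusted p = 0.0333), beside a median of -0.01. NF2 had a change of -0.22 ± 0.06 in KO1 (adjusted p = 0.0106), a call lost with the GC trend removed (-0.10) and without WT replicate 2 (-0.19).

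AMOT, the founding angiomotin and a scaffold that binds YAP1, was close to undetected in both clones. It had 9, 7 and 16 reads in KO1 (0.115, 0.0886 and 0.183 CPM) and 3, 11 and 13 reads in KO2 (0.0574, 0.167 and 0.205 CPM), against 414, 254 and 306 reads in WT (4.21, 4.18 and 4.86 CPM). Every WT library was far above every clone library. The log2 change was -5.06 ± 0.25 in KO1 (adjusted p = 1.46e-09) and -4.88 ± 0.26 in KO2 (adjusted p = 7.62e-10), both calls kept in all 19 alternative analyses. Its neighbours on chromosome X had medians of 0.20 in KO1 and -0.12 in KO2.

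Of the transcription factors and cofactors, 8 of 10 were tested; VGLL1 and VGLL2 had 0 counts in all libraries. In KO1, 4 were higher and 3 lower (median 0.17), beside 18% higher and 16.8% lower among all tested genes. In KO2, 3 were higher and 3 lower (median -0.08), beside 24.7% each way. With the GC trend removed 3 were higher and 2 lower in KO2, and the median was 0.01. Of all 17759 tested genes, 5299 were then higher and 4430 lower in KO2. VGLL4, which competes with YAP1 for TEAD, stood at 34.3, 33.8 and 34.7 CPM in KO1 and at 14.4, 14.8 and 12.6 CPM in KO2, against 19.7, 20.8 and 20.8 CPM in WT. Its log2 change was 0.75 ± 0.06 in KO1 and -0.55 ± 0.07 in KO2, where 38 of its 40 neighbours on chromosome 3 also lay below 0 with a median of -0.43. TEAD2 moved the other way, with changes of -0.43 ± 0.08 in KO1 and 0.80 ± 0.07 in KO2, a difference of -1.23 ± 0.08 (KO1 minus KO2, adjusted p = 2.8e-09). In KO1 the TEAD2 neighbours had a median of -0.37 and those in KO2 one of -0.09. VGLL3 rose by 0.52 ± 0.13 in KO1. TEAD3 was lower, with changes of -0.40 ± 0.07 in KO1 and -0.29 ± 0.07 in KO2, and the KO2 call was lost with the GC trend removed (-0.05). The TEAD3 neighbours on chromosome 6 had medians of -0.34 in KO1, with 28 of 40 below 0, and -0.29 in KO2, with 30 of 40 below 0.

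**Figure D4:**
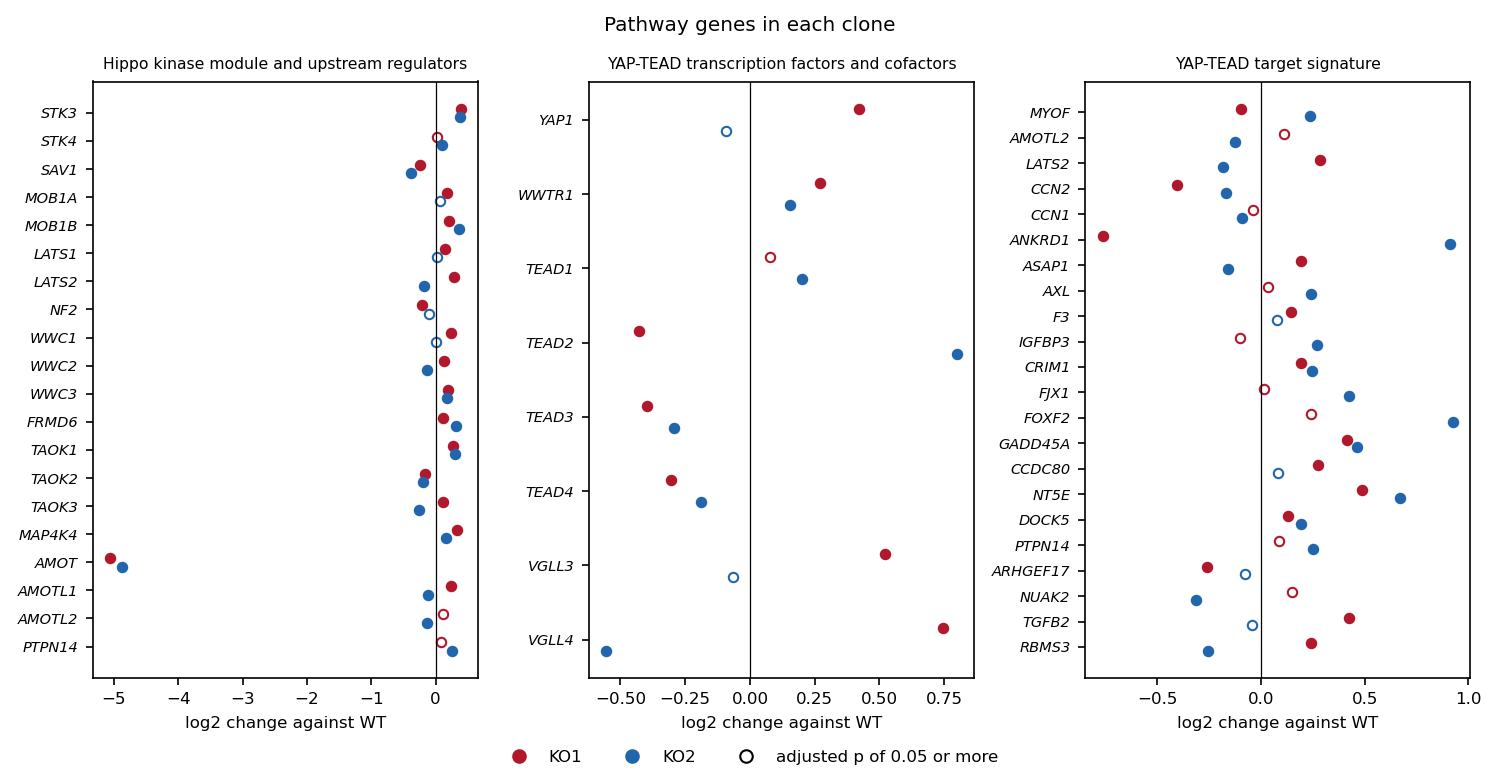
Log2 change against WT (horizontal axis) of the tested genes of 3 lists in KO1 and KO2; filled points were called changed and open points were not. AMOT lies near -5 in both clones, VGLL4 and TEAD2 lie on opposite sides of 0 in the clones, and the target list holds genes on both sides.

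A signature of 22 YAP-TEAD targets, CCN1, CCN2, ANKRD1, AMOTL2 and LATS2 included, did not move in 1 direction. In KO1, 10 were higher, 4 lower and 8 not called (median 0.14), beside 18% higher and 16.8% lower among all tested genes. In KO2, 11 were higher, 7 lower and 4 not called (median 0.14), beside 24.7% each way. With the GC trend removed, 13 were higher and 4 lower in KO1 and 12 higher and 5 lower in KO2. Of all 17759 tested genes, 3785 were then higher and 3172 lower in KO1, and 5299 higher and 4430 lower in KO2. With upper quartile scaling 10 of the signature were higher and 3 lower in KO1, and 13 higher and 5 lower in KO2. Of all tested genes, 3302 were then higher and 2913 lower in KO1, and 4893 higher and 3899 lower in KO2. NT5E, an ecto-nucleotidase, rose by 0.49 ± 0.04 in KO1 and 0.67 ± 0.04 in KO2, and the stress gene GADD45A rose by 0.41 ± 0.06 and 0.46 ± 0.06. TGFB2, a growth factor, rose by 0.43 ± 0.05 in KO1 and had a change of -0.04 in KO2. The transcription factor FOXF2 rose by 0.92 ± 0.11 in KO2 and had a change of 0.24 ± 0.11 in KO1 (adjusted p = 0.119). With the GC trend removed, the FOXF2 change was 1.31 in KO2 and 0.54 in KO1, where it was then called (adjusted p = 0.000102). Lower in KO2 were ASAP1, with a change of -0.16 ± 0.04, the RNA-binding gene RBMS3, with -0.26 ± 0.07, and the kinase NUAK2, with -0.31 ± 0.11. Their neighbours had medians of -0.21 for ASAP1, -0.16 for RBMS3 and 0.13 for NUAK2. The NUAK2 call was lost with the GC trend removed (-0.18), and without WT replicate 1 (-0.25), KO2 replicate 1 (-0.27) or KO2 replicate 3 (-0.26). In KO1, ASAP1 was higher by 0.19 ± 0.04 (adjusted p = 0.00138) and RBMS3 by 0.24 ± 0.07 (adjusted p = 0.0122). Their neighbours there had medians of 0.16 and 0.18. With the GC trend removed the RBMS3 call in KO1 was lost (0.14, adjusted p = 0.0743). ARHGEF17 had a change of -0.26 ± 0.07 in KO1, which was 0.019 with the GC trend removed and lost its call without WT replicate 2 (-0.22). MYOF had -0.10 ± 0.04 in KO1 (adjusted p = 0.0446). This call was lost in 13 of 19 alternatives, among them leaving out any 1 library but KO2 replicate 3 (-0.07 to -0.09). In KO2 MYOF rose by 0.23 ± 0.04 (adjusted p = 5.3e-05), and the clones differed by -0.33 ± 0.04 (KO1 minus KO2, adjusted p = 1.23e-06). Its neighbours had medians of -0.29 in KO1 and 0.18 in KO2.

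Of 10 cell-surface partners of the CCN proteins, mostly integrins, 7 were higher, none lower and 3 (ITGB5, LRP6 and NOTCH1) not called in KO1 (median 0.39), beside 18% higher and 16.8% lower among all tested genes. In KO2, 2 were higher, 2 lower and 6 not called (median 0.04), beside 24.7% each way among all tested genes. With the GC trend removed, 8 were higher and none lower in KO1, and 4 were higher and 2 lower in KO2. Of all 17759 tested genes, 3785 were then higher and 3172 lower in KO1, and 5299 higher and 4430 lower in KO2. ITGA6 rose by 0.86 ± 0.04, ITGA5 by 0.53 ± 0.05 and ITGAV by 0.47 ± 0.05 in KO1. In KO2, ITGAV rose by 0.69 ± 0.05, beside neighbours with a median of 0.50. The syndecan SDC4 rose by 0.30 ± 0.04 in KO1 and by 0.16 ± 0.04 in KO2. ITGB5 had a change of -0.47 ± 0.06 and NOTCH1, a receptor that binds CCN3, had one of -0.86 ± 0.12 in KO2, where the NOTCH1 neighbours had a median of -0.36. With the GC trend removed, NOTCH1 had a change of 0.29 in KO1 (adjusted p = 0.00014) and -0.49 in KO2 (adjusted p = 1.29e-07). ITGA6 had a change of -0.01 in KO2.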

How the data were processed

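Gene counts of 9 libraries were analysed. Total RNA, purified on RNeasy columns, went into TruSeq libraries (Illumina), per the labels' protocols. The authors deposited raw read counts per gene symbol, without normalization. The tools named are Trim Galore and HISAT2, and the builds are GRCm38, mm10 and hg38 with no role stated, per the submitters' processing notes. The sources used here do not give a read counter, an annotation or a strand setting.

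From the deposited counts, genes with low counts were removed (filterByExpr), leaving 17759 of 61155, and libraries were scaled by TMM factors. A quasi-likelihood model (edgeR 4.0.16, R 4.3.3, robust) had 1 mean for each group and took in all 9 libraries; calls were made at a p under 0.05 after Benjamini-Hochberg adjustment. The biological coefficient of variation was 7.46%. CPM is the count per 1000000 of the scaled total. Libraries of 1 group differed beyond sampling noise in every pair (chi-square per degree of freedom 6.39 to 32.5), so none was taken as a duplicate. Positions, exon lengths and GC content came from GENCODE 29 (GRCh38), which matched 56528 symbols; neighbours are the 20 nearest tested genes on each side. Besides the 10 genes and FBXL12, up to 3 rising and 3 falling genes of each list with the smallest p in each clone are named, and the 3 genes nearest to CCN3 whose mean log2 CPM was 2 or more. The genes and lists were chosen with earlier results of these data known. The alternatives tried were upper quartile and RLE scaling, no filter and a filter at 1 CPM in 3 libraries, DESeq2 1.42.0, limma-voom (limma 3.58.1), a fit of only the 2 groups compared, a replicate block, removal of a GC trend (lowess, span 0.3) with and without the block, and leaving out each library. The scripts were tested on simulated data.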

Additional observations from a re-analysis of the deposited data

Results flagged for a closer look

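These genes changed differently in the clones, as tested by KO1 minus KO2 in the quasi-likelihood fit. Such differences were common: 48.9% of all 17759 tested genes were called between the clones, and 61.2% of the 4704 highly expressed ones. How many of all tested genes were called in every alternative analysis was not counted. The difference in log2 change was -1.67 for ANKRD1, 0.51 for YAP1, 0.47 for LATS2, 0.24 for AMOTL2 and -0.23 for CCN2, and each of these passed the threshold in all 19 alternative analyses. It was 0.12 for WWTR1 and -0.12 for TEAD1, which did not pass in all of them. For CCN3 it was -2.90, a difference that was not tested because it chose the gene; all 3 KO1 libraries lay below and all 3 KO2 libraries above the WT libraries.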

How the results depend on the processing

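For the 9 tested genes, the 3 comparisons and 19 alternatives gave 513 values. Of these, 461 kept their direction and side of the threshold, 36 kept the direction but lost the call, 12 gained a call and 4 turned sign. The 4 were AMOTL2 and TEAD4 in KO2 with the GC trend removed: AMOTL2 was 0.0052 (0.0051 with the replicate block) and TEAD4 was 0.077 (0.077 with the block). For the other named list genes, each in the comparison by which it was picked, there were 703 values. Of these, 676 stayed, 25 lost the call and 2 turned sign, ARHGEF17 in KO1 at 0.019 with the GC trend removed and 0.018 with the block. The cause was not tested. Of the 9 genes, 5 rather than 8 were called in KO2 with upper quartile scaling. Of all tested genes, 8792 rather than 8776 were called there. Leaving out 1 library gave 6 to 7 called genes in KO1, 4 to 9 in KO2 (4 without WT replicate 2) and 5 to 7 between the clones; over all tested genes it gave 4690 to 6537 calls in KO1, 7685 to 9309 in KO2 and 7607 to 8679 between the clones.

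The replicate numbers did not pair the libraries: correlations of deviations between libraries with the same number ran from -0.0999 to 0.0499 over 9 pairs. With the replicate number as a block, 6 of the 9 genes were called in KO1, 7 in KO2 and 7 between the clones, and 5544, 8302 and 8240 of all tested genes; AMOTL2 in KO2 had a change of -0.13 (adjusted p = 0.0645). Depth limits what can be said of genes with few reads, such as CCN4, CCN5 and CCN6 in all groups and AMOT in the clones; counting error alone leaves a gene with 0 reads at up to 0.0572 CPM (3 counts) in the shallowest library.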
